A study of Homo sapiens with 51 samples.

Results

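The 9 genes described here make asparagine, arginine, proline and cysteine or feed carbon and nitrogen into them. They are ASNS, ASS1, ALDH18A1, PYCR1, CTH, CBS, GOT1, GPT2 and PCK2. They were chosen by name, with no measured value in the rule, but with earlier results of these data known. All 9 symbols were found among the 60664 gene identifiers of the count files. Each passed the filter on low counts in every fit, although ASNS did so in nuclear-labelled RNA of the transgene set only through groups where it was high.

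The study measured RNA in K562 cells, a human erythroleukaemia line. Silencing by CRISPR interference was combined with separation of each culture into a nuclear-labelled and a cytoplasmic-labelled fraction. In the guide set, cells carried 1 of 4 guides, sgDDX3, sgCNOT1, sgNUP160 or the control sgGal4. In the transgene set, endogenous DDX3 was silenced and cells received a lentiviral DDX3 transgene, either a mutant (G325E, R326H, R351W, R376C, R534S or T532M) or wild type (WT). The same set held silenced cells with no transgene and uninfected cells with no silencing. The labels name no set for the uninfected cells, and their place in this set is an assumption. The growth medium, per the labels, was DMEM with serum and added glutamine for all groups. Each genotype had 2 libraries per fraction, except R376C with 1 per fraction. All cells come from a single line, and nothing in the labels says that replicates are separate cultures, so p-values measure the spread between these libraries only.

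Asparagine synthetase (ASNS) transfers the amide of glutamine to aspartate. Argininosuccinate synthase (ASS1) joins citrulline and aspartate on the way to arginine. The bifunctional enzyme encoded by ALDH18A1 and then PYCR1 make proline from glutamate, while CBS and then CTH make cysteine from homocysteine. The transaminases GOT1 and GPT2 exchange amino groups between glutamate and aspartate or alanine. PCK2 makes phosphoenolpyruvate from oxaloacetate inside mitochondria. In human and mouse cells short of amino acids, the kinase GCN2 (EIF2AK4) or other stress kinases favour translation of ATF4, a transcription factor that activates ASNS and many other amino acid synthesis and transport genes. DDX3X is an RNA helicase that acts in translation initiation, CNOT1 is the scaffold of the main deadenylase complex, and NUP160 is part of the nuclear pore.

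In GENCODE 29 on GRCh38, ASNS lies at chr7:97852118-97872542 on the minus strand and ASS1 at chr9:130444929-130501274 on the plus strand. ALDH18A1 (chr10:95605929-95656706), PYCR1 (chr17:81932384-81942412), CBS (chr21:43053191-43076943) and GOT1 (chr10:99396870-99431569) are on the minus strand. CTH (chr1:70411218-70439851), GPT2 (chr16:46884378-46931297) and PCK2 (chr14:24094053-24110598) are on the plus strand. Counting limits some of these genes. For ASNS, 44.6% of the exon bases are shared on the same strand with the processed transcript AC079781.5, and reads that fall in more than 1 gene are usually not counted. ASNS had only 0 to 258 counts per library, with a median of 20.5, so its level is uncertain and its folds rest on few reads. Its annotated pseudogene ASNSP1 reached 482 counts, and the handling of reads that match both was not tested. ASS1 has 11 annotated pseudogenes elsewhere and CBS has the near-identical copy CBSL, which held at most 143 counts. GOT1 shares 19.3% of its exon bases with the opposite-strand transcript AL391684.1.

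The letters TGATGNAA spell the core of the response element that ATF4 and C/EBP proteins bind, and are shown because ASNS is a textbook target. They were searched on both strands in RefSeq promoters of GRCh38.p14, from 250 bases before to 50 bases after each start. The 7 members with an entry had 11 entries, of which 2 held the motif, against 3.62% of all 35116 entries. For ASNS, 1 of its 2 entries held it. Both sites are printed 5′ to 3′ on the gene's own strand, with the motif letters in capitals.
ASNS, chr7:97872458-97872487, minus strand: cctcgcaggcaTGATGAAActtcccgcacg
GOT1, chr10:99430804-99430833, minus strand: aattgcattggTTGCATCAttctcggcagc
The ASNS motif starts 68 bases before the RefSeq start. The GOT1 match starts 198 bases before it and reads as the reverse complement. Entries of ASS1, ALDH18A1, CBS, CTH and PCK2 did not hold these letters in this window. A match describes the letters only.

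The libraries held 3716156 to 21365002 gene counts in the nuclear-labelled fraction and 2354961 to 10386022 in the cytoplasmic-labelled fraction. The content of the fractions ran against their labels. The nuclear RNA MALAT1 had 1665 to 3549 CPM (gene counts scaled to a common library total) in nuclear-labelled libraries, against 20729 to 34091 CPM in cytoplasmic-labelled libraries. The names are therefore used as labels only. The second R376C nuclear-labelled library resembled the cytoplasmic-labelled ones and was left out, as the choice of libraries for these genes required. The erythroid markers GATA1 (99.3 to 320.1 CPM) and TFRC (401.4 to 2002 CPM) were present in every library, while HBE1 was listed at 0 in all. Of 8 markers of other cell types, EPCAM reached 37.8 CPM and the rest stayed at or under 6.24 CPM.

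The targeted genes followed the labels. DDX3X had 40.6 and 43.4 CPM in sgDDX3 nuclear-labelled libraries, against 261.6 and 277.0 CPM in sgGal4 libraries. In the transgene set it had 146.9 and 147.0 CPM with no transgene, against 284.1 and 297.7 CPM in uninfected cells, both nuclear-labelled. DDX3X RNA was thus less depleted in the transgene set than in the guide set. In cells with a transgene, its nuclear-labelled level ran between 290.3 CPM in R351W and 554.5 CPM in G325E. CNOT1 had 44.8 and 44.4 CPM in sgCNOT1, against 825.0 and 833.1 CPM in sgGal4, and NUP160 had 15.8 and 12.6 CPM in sgNUP160, against 151.7 and 153.6 CPM in sgGal4, also nuclear-labelled. Levels are TMM-normalised CPM within each set and fraction unless another scale is named.

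Per kilobase of exon, PCK2 and PYCR1 had the most counts among the members in control cells and ASNS the fewest. Reads lost to AC079781.5 or ASNSP1 would lower the ASNS value, and reads lost to CBSL the CBS value. The size of such losses was not tested, so the places of ASNS and CBS are uncertain. In nuclear-labelled uninfected libraries, PYCR1 averaged 122 CPM per kb and PCK2 94.9, followed by CTH at 51.3, ASS1 at 39.0, GPT2 at 23.1, GOT1 at 18.5, CBS at 8.81, ALDH18A1 at 6.53 and ASNS at 0.599. No neighbours in that order overlapped between their libraries. In cytoplasmic-labelled uninfected libraries, PCK2 led with 93.4 CPM per kb, ahead of PYCR1 at 41.9 and CTH at 36.2, and ASNS was again last at 5.59. There ASS1, GPT2 and CBS, at 19.1, 18.0 and 17.9 CPM per kb, followed each other with overlapping libraries. In sgGal4 cells the neighbours that overlapped were ASS1 with GPT2 in the cytoplasmic-labelled fraction and ASS1 with CTH in the nuclear-labelled fraction.

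**Figure D1:**
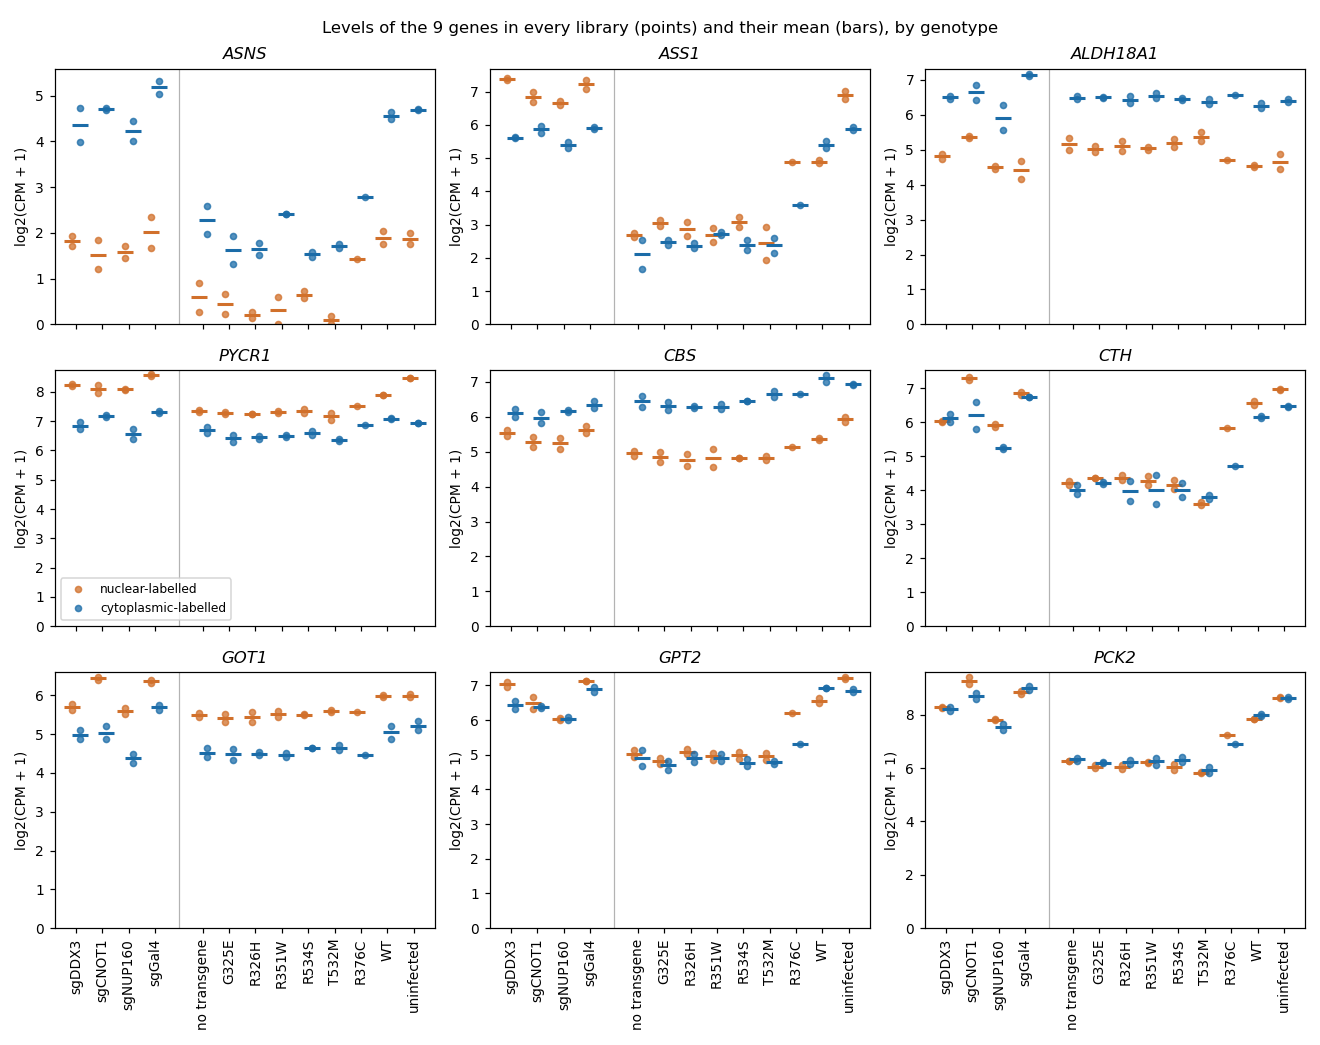
Levels of the 9 genes in every library, as log2(CPM + 1), for the 13 genotypes on the x axis, with the guide set left of the grey line and the transgene set right of it. Points are libraries and bars are their means. ASNS, ASS1, CTH, GPT2 and PCK2 were low in cells with no transgene and with 5 of the 6 mutants, and high in WT and uninfected cells.

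Most of the 9 genes were lower after loss of DDX3 in the transgene set. Against uninfected cells, 8 members were lower and 1 higher with no transgene in the nuclear-labelled fraction, where 19.3% and 19.7% of all 14598 genes tested were called lower and higher. The 8 include ASNS, which passed the filter of that fit only through groups where it was high, so its call adds no support of its own. In cytoplasmic-labelled RNA 7 members were lower, against 11.8% of all 17530 genes called lower. The median log2 fold change of the members was -2.21 nuclear-labelled and -1.98 cytoplasmic-labelled, where the median of all genes was -0.01 and 0.00. A call here is an adjusted p under 0.05 in edgeR's quasi-likelihood test with Benjamini-Hochberg adjustment over all genes tested, and every adjusted p below is from that test. Fewer molecules per cell and a change in other RNA cannot be told apart in these bulk libraries.

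The arginine enzyme ASS1 moved most. It had 5.72 and 5.21 CPM with no transgene, against 130 and 108 CPM in uninfected nuclear-labelled libraries. In cytoplasmic-labelled RNA it had 2.21 and 4.80 CPM with no transgene, against 59.8 and 56.7 CPM in uninfected cells. The groups did not overlap in either fraction. The log2 fold change was -4.44 ± 0.16 (SE) in the nuclear-labelled fraction (adjusted p = 6.04e-36) and -4.03 ± 0.26 in the cytoplasmic-labelled fraction (adjusted p = 2.68e-14).

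ASNS had 12 and 22 counts with no transgene, or 2.94 and 5.03 CPM, against 144 and 154 counts, or 24.6 and 25.2 CPM, in uninfected cytoplasmic-labelled libraries. That gave a log2 fold change of -2.63 ± 0.29 (adjusted p = 1.58e-08), with no overlap between groups. Nuclear-labelled libraries held 2 and 7 ASNS counts with no transgene, against 26 and 21 counts in uninfected cells. The call there (adjusted p = 0.00312) was lost without the first no-transgene library, with a log2 fold change of -1.60.

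Of the cysteine enzymes, CTH fell much further than CBS. CTH had 18.3 and 17.0 CPM with no transgene, against 124 CPM in both uninfected nuclear-labelled libraries, a log2 fold change of -2.81 ± 0.11 (adjusted p = 8.56e-36). CBS had 28.3 and 31.6 CPM with no transgene, against 57.1 and 62.5 CPM in uninfected cells, 2.00-fold lower with an SE of 0.12 on the log2 scale (adjusted p = 1.22e-10). Both genes were also lower in the cytoplasmic-labelled fraction, with log2 fold changes of -2.51 ± 0.20 for CTH and -0.49 ± 0.12 for CBS. Neither gene's groups overlapped in either fraction.

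The proline enzymes, which act in sequence, moved in opposite directions in the nuclear-labelled fraction. PYCR1, the last step, had 164 and 158 CPM with no transgene, against 350.8 and 354.3 CPM in uninfected nuclear-labelled libraries, a log2 fold change of -1.13 ± 0.06 (adjusted p = 2.11e-26). ALDH18A1, the first step, had 30.8 and 39.6 CPM with no transgene, against 28.1 and 21.0 CPM in uninfected cells, a log2 fold change of 0.51 ± 0.13 (adjusted p = 0.00122). That ALDH18A1 call was lost without the second no-transgene library (0.33) or the second uninfected library (0.31). In cytoplasmic-labelled RNA neither passed the test. PYCR1 had 95.9 and 109 CPM with no transgene, against 120 and 122 CPM in uninfected cells, and ALDH18A1 had 87.5 and 91.2 CPM with no transgene, against 81.2 and 85.9 CPM.

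PCK2 and GPT2 fell in both fractions. PCK2 had 75.9 and 75.5 CPM with no transgene, against 404 and 392 CPM in uninfected nuclear-labelled libraries, a log2 fold change of -2.39 ± 0.07 (adjusted p = 6.39e-44). GPT2 had 33.9 and 29.4 CPM with no transgene, against 150 and 144 CPM, a log2 fold change of -2.21 ± 0.10 (adjusted p = 1.05e-32). The cytoplasmic-labelled log2 fold changes were -2.31 ± 0.11 for PCK2 and -1.98 ± 0.15 for GPT2. GOT1 moved least of the 3 transaminase and phosphoenolpyruvate genes. It had 42.2 and 46.1 CPM with no transgene, against 64.2 and 60.7 CPM in uninfected nuclear-labelled libraries, a log2 fold change of -0.50 ± 0.10 (adjusted p = 1.99e-05). Its cytoplasmic-labelled call, at -0.72 ± 0.18, was lost without the second uninfected library, at -0.60.

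The next comparison asks what the WT transgene restores, with the silencing kept. Against WT cells, cells with no transgene had 8 members lower and 1 higher in the nuclear-labelled fraction, where 8.73% and 9.23% of all genes were called lower and higher. ASNS was again among the 8 lower members, with the same limit from the filter. In cytoplasmic-labelled RNA 7 members were lower, against 4.19% of all genes. ASS1 had 27.7 and 29.8 CPM in WT nuclear-labelled libraries and 38.5 and 44.6 CPM in WT cytoplasmic-labelled ones, above both libraries with no transgene in each fraction. Its log2 fold change with no transgene against WT was -2.39 ± 0.18 nuclear-labelled (adjusted p = 6.28e-18) and -3.55 ± 0.26 cytoplasmic-labelled (adjusted p = 3.68e-12). ALDH18A1 was again the member that was higher, with a nuclear-labelled log2 fold change of 0.66 ± 0.13 (adjusted p = 8.67e-05). GOT1 did not pass in the cytoplasmic-labelled fraction, at -0.54 ± 0.18 (adjusted p = 0.0599). The PYCR1 call there, at -0.39 ± 0.11, was lost without either WT library, without the first no-transgene library, and with unstranded counts. In nuclear-labelled RNA the ASNS call was lost without the second WT library or the first no-transgene library, and the CBS call was lost without either first library. The comparisons with WT and with uninfected cells share the no-transgene libraries.

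WT cells still differed from uninfected cells. Whether these differences depended on the fraction was not tested. In nuclear-labelled RNA 6 members were lower in WT, against 10.3% of all genes called lower. ASS1 differed most, with the 27.7 and 29.8 CPM of WT cells against 130 and 108 CPM in uninfected cells, a log2 fold change of -2.04 ± 0.12 (adjusted p = 1.64e-22). PCK2 had 227 and 225 CPM in WT cells, against 404 and 392 CPM in uninfected cells, a log2 fold change of -0.81 ± 0.06 (adjusted p = 2.16e-18). GPT2, PYCR1, CBS and CTH were also lower, with log2 fold changes of -0.65, -0.59, -0.58 and -0.40. In cytoplasmic-labelled RNA only PCK2 was called, with a log2 fold change of -0.62 ± 0.10 (adjusted p = 0.000145) and 3.73% of all genes called lower. ASS1 there had 38.5 and 44.6 CPM in WT cells, against 59.8 and 56.7 CPM in uninfected cells, which did not overlap but did not pass (adjusted p = 0.0848). CTH was at -0.31 ± 0.17 there (adjusted p = 0.262), against -0.40 ± 0.09 nuclear-labelled. MT-CO1, a mitochondrial transcript, was at 4051 and 4261 CPM without TMM scaling in WT nuclear-labelled libraries, against 13089.8 and 12404 CPM in uninfected ones. The part of MT-CO1 in these differences was not tested.

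**Figure D2:**
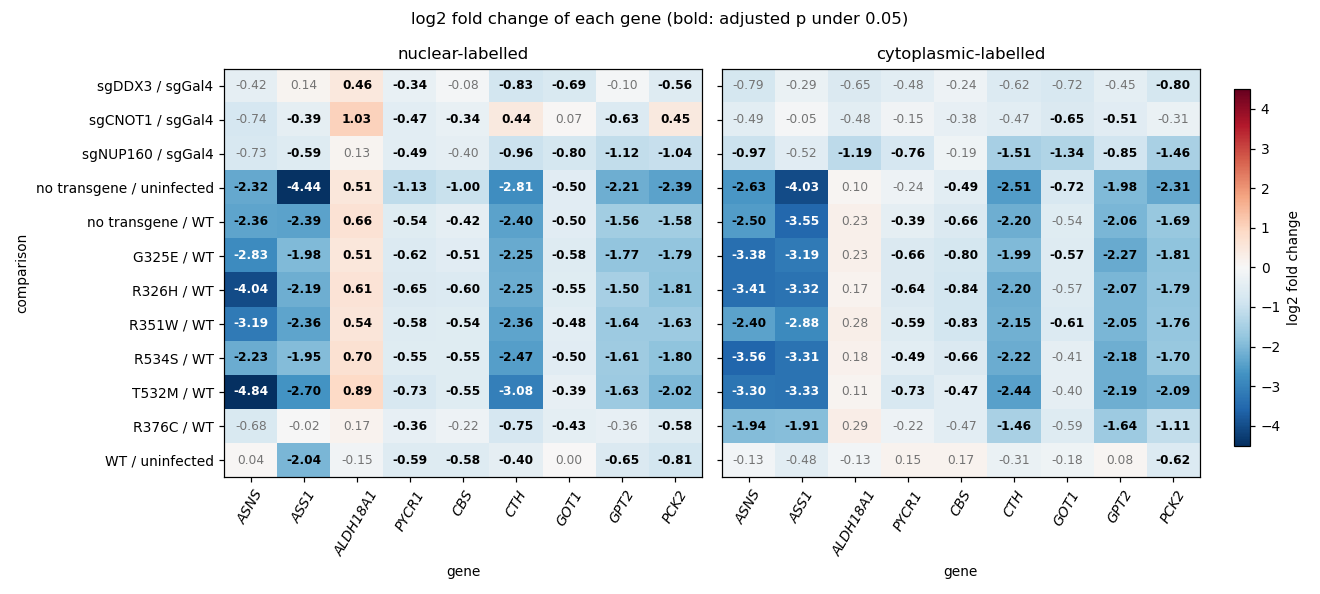
Log2 fold change of each gene (x axis) in each comparison (y axis, the group named first over the group named second), by labelled fraction. Bold values passed an adjusted p under 0.05. Fitted ASNS values in the nuclear-labelled fraction rest on as few as 0 and 1 counts in T532M. ALDH18A1 was the member with positive values with no transgene and in each mutant.

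Of the 6 DDX3 mutants, 5 had nearly all members below WT. The comparisons with WT all share the WT libraries. In nuclear-labelled RNA 8 members were lower and ALDH18A1 was higher in each of G325E, R326H, R351W, R534S and T532M. The shares of all genes called lower and higher there were 8.65% and 8.62% in G325E, 8.65% and 9.03% in R326H, 7.52% and 7.51% in R351W, 10.2% and 10.2% in R534S, and 17.7% and 17.5% in T532M. The 8 lower members included ASNS, at 0 to 0.868 CPM in nuclear-labelled libraries of these mutants and of cells with no transgene. ASNS passed the filter of that fit only through WT, uninfected and R376C cells, where it was higher. In cytoplasmic-labelled RNA 8 members were lower in G325E and R351W, against 3.94% and 3.46% of all genes. In R326H, R534S and T532M 7 members were lower, against 3.32%, 4.27% and 7.88% of all genes. GOT1 was the member that differed between those counts, and its calls in G325E and R351W were each lost with unstranded counts, with DESeq2, without the first WT library and without either library of the mutant. The G325E call of GOT1 was also lost without the second WT library. Other calls that were lost when 1 library of the mutant or of WT was left out were PYCR1 in R534S and CBS in T532M in the cytoplasmic-labelled fraction. In nuclear-labelled RNA they were ASNS, ALDH18A1 and CBS in G325E, CBS in R351W and ASNS in R534S.

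The libraries of these 5 mutants and of cells with no transgene lay together. PCK2 had 55.6 to 75.9 CPM over the 12 nuclear-labelled libraries of the 5 mutants and cells with no transgene, with a median of 68.0 CPM. The 4 WT and uninfected libraries had 225 to 404 CPM, with a median of 309.5 CPM. CTH had 10.7 to 20.7 CPM in those 12 libraries, against 89.3 to 124 CPM in WT and uninfected cells. GPT2 had 25.7 to 34.8 CPM in the 12 libraries, against 89.1 to 150 CPM. For 8 of the 9 genes, ALDH18A1 aside, the 12 libraries lay below all 4 WT and uninfected libraries in both fractions. The share of all genes separated in this way was not counted.

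In the cytoplasmic-labelled fraction, the separation was of similar size. ASS1 had 2.21 to 5.86 CPM in the 12 libraries, against 38.5 to 59.8 CPM in the 4 WT and uninfected libraries. ASNS had 1.48 to 5.03 CPM, against 21.4 to 25.2 CPM. PYCR1, CBS and GOT1 were separated by less. PYCR1 had 77.9 to 109 CPM in the 12 libraries, against 120 to 136 CPM, CBS had 71.5 to 105 CPM, against 120 to 145 CPM, and GOT1 had 19.3 to 25.2 CPM, against 28.5 to 39.3 CPM. ALDH18A1 overlapped in the cytoplasmic-labelled fraction, at 79.0 to 97.9 CPM in the 12 libraries, against 72.2 to 85.9 CPM. In nuclear-labelled RNA it lay above, at 29.4 to 44.5 CPM, against 21.0 to 28.1 CPM.

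Against WT, the nuclear-labelled log2 fold changes over the 5 mutants ran from -3.08 to -2.25 for CTH, from -2.70 to -1.95 for ASS1, from -2.02 to -1.63 for PCK2 and from -1.77 to -1.50 for GPT2. They ran from -0.73 to -0.55 for PYCR1, from -0.60 to -0.51 for CBS and from -0.58 to -0.39 for GOT1. ALDH18A1 ran from 0.51 to 0.89. T532M had the most negative value for CTH, ASS1, PCK2 and PYCR1 and the highest for ALDH18A1.

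A test for any difference among the 5 mutants and cells with no transgene was added after seeing the data. In cytoplasmic-labelled RNA edgeR's F test called 0 members at an adjusted p under 0.05, against 5.24% of all genes, and DESeq2 was not run for it. At an unadjusted p under 0.05 there were 4, namely ASNS, CBS, PCK2 and PYCR1. Without the first no-transgene library the test called 3 members, and without the second it called 2. In nuclear-labelled RNA it called 2 members, against 22.7% of all genes, so the count of members is near the share of all genes. The 2 members were CTH (adjusted p = 0.000284) and PCK2 (adjusted p = 0.000346). T532M was the lowest in both, with 10.7 and 11.5 CPM of CTH and 55.6 and 56.0 CPM of PCK2, below all libraries of the other 5 genotypes. Without the second T532M library, 4 members were called.

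**Figure D3:**
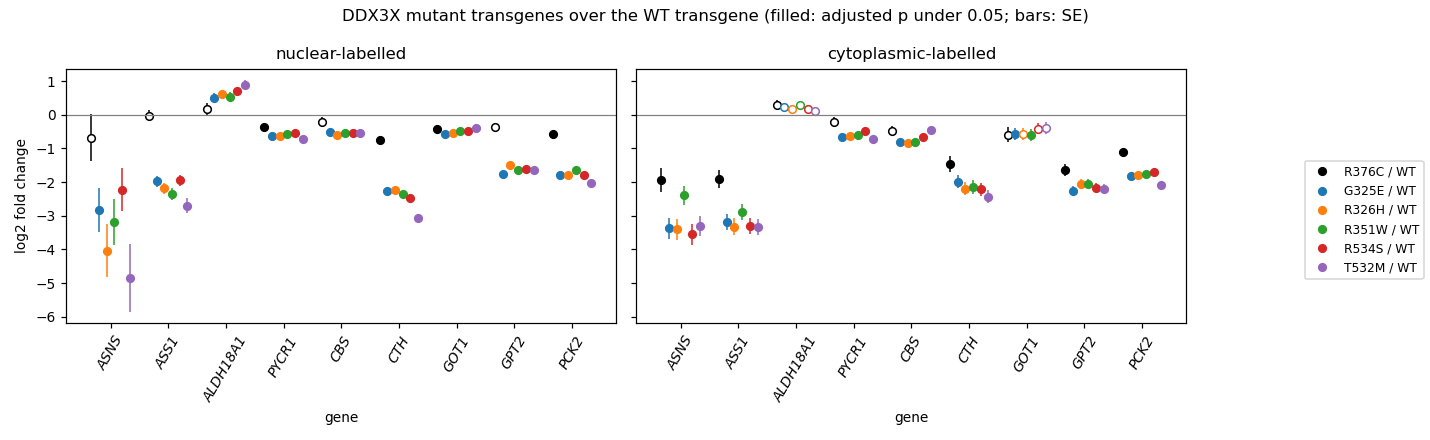
Log2 fold change of each gene (x axis) in each mutant over WT, with SE bars, by labelled fraction. Filled points passed an adjusted p under 0.05. The R376C points lie above those of the other 5 mutants for ASNS, ASS1, CTH, GPT2 and PCK2 in both fractions.

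R376C had 1 library in each fraction. In both fractions its levels of ASNS, PYCR1, CTH, GPT2 and PCK2 lay between the 12 libraries of the other mutants and cells with no transgene and the 4 WT and uninfected libraries, as did ASS1 in cytoplasmic-labelled and CBS in nuclear-labelled RNA. GOT1 in both fractions, and CBS and ALDH18A1 in the cytoplasmic-labelled one, lay within the range of the 12. Nuclear-labelled ASS1 and ALDH18A1 lay within the range of WT and uninfected cells. Its spread is taken from the other groups of the fit, since a lone library has none of its own. Against WT, 4 members were lower in R376C in the nuclear-labelled fraction, where 1.63% of all genes were called lower, and 5 in the cytoplasmic-labelled fraction, where 0.73% were. In nuclear-labelled RNA ASS1 had 28.4 CPM in R376C, against 27.7 and 29.8 CPM in WT cells, and did not pass (log2 fold change -0.02 ± 0.18, adjusted p = 0.969). CTH had 55.7 CPM in R376C, against 98.4 and 89.3 CPM in WT cells, a log2 fold change of -0.75 ± 0.12 (adjusted p = 1.04e-05). PCK2 had 151 CPM in R376C, against 227 and 225 CPM, a log2 fold change of -0.58 ± 0.08 (adjusted p = 5.88e-07). PYCR1 and GOT1 were the other 2 members called, and the GOT1 call was lost without either WT library, with DESeq2 and in 1 fit of both fractions.

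In the cytoplasmic-labelled fraction the R376C library lay nearer to the other mutants than to WT for ASS1, GPT2, CTH, ASNS and PCK2. PYCR1 had 115.4 CPM in R376C, above the 77.9 to 99.3 CPM of the other 5 mutants and below the 136 and 132 CPM of WT cells. Whether the R376C change depended on the fraction was not tested. ASS1 had 11.1 CPM in R376C, against 38.5 and 44.6 CPM in WT cells, a log2 fold change of -1.91 ± 0.28 (adjusted p = 5.28e-05). GPT2 had 38.9 CPM in R376C, against 121 CPM in both WT libraries, a log2 fold change of -1.64 ± 0.18 (adjusted p = 5.54e-07). CTH had 25.5 CPM in R376C, against 68.6 and 71.9 CPM, a log2 fold change of -1.46 ± 0.24 (adjusted p = 0.000417). ASNS and PCK2 were also lower, with log2 fold changes of -1.94 ± 0.36 and -1.11 ± 0.14. Each of these 5 values still lay above all 12 libraries of the other mutants and cells with no transgene.

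The difference between R376C and the mean of the other 5 mutants was tested after seeing the data. In nuclear-labelled RNA 6 members were higher and 1 lower in R376C, where 3.91% and 3.58% of all genes were called higher and lower. ASS1 was higher by 2.21 ± 0.17 on the log2 scale (adjusted p = 1.21e-16), CTH by 1.73 ± 0.11 (adjusted p = 4.16e-21), GPT2 by 1.27 ± 0.10 and PCK2 by 1.23 ± 0.07. ASNS, with 12 counts in R376C against 0 to 6 in the 10 other mutant libraries, was called as well (adjusted p = 0.0133). It passed the filter of this fit only through R376C, WT and uninfected cells, where it was higher. The ASNS call, 1 of the 6, therefore adds no support of its own. ALDH18A1 was lower, at -0.48 ± 0.15 (adjusted p = 0.0371), a call lost under 3 alternatives and without any of 4 single libraries. In cytoplasmic-labelled RNA only PCK2 was called, higher by 0.72 ± 0.12 (adjusted p = 0.00115), against 0.0742% of all genes called higher. With 1 R376C library per fraction, a library effect and a mutant effect cannot be told apart.

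The guide set compares each silenced gene with the sgGal4 control, which all 3 share. In sgDDX3 cells, 4 members were lower and 1 higher than in sgGal4 cells in the nuclear-labelled fraction, where 14.9% and 16.4% of all 14324 genes were called lower and higher. CTH had 63.4 and 64.7 CPM in sgDDX3, against 112 and 117 CPM in sgGal4, a log2 fold change of -0.83 ± 0.10 (adjusted p = 2.16e-07). GOT1 had 47.9 and 53.5 CPM in sgDDX3, against 83.6 and 79.4 CPM, a log2 fold change of -0.69 ± 0.11 (adjusted p = 2.75e-05). PCK2 and PYCR1 were lower too, at -0.56 ± 0.08 and -0.34 ± 0.08. ALDH18A1 was higher, at 0.46 ± 0.17 (adjusted p = 0.0335), a call lost with unstranded counts, with DESeq2 and without 3 of the 4 libraries in turn. ASS1 did not pass, at 162 and 168 CPM in sgDDX3, against 163 and 134 CPM in sgGal4.

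In the cytoplasmic-labelled fraction of sgDDX3 cells, only PCK2 was called, where 1.68% of all 16091 genes were called lower. PCK2 had 280 and 308 CPM in sgDDX3, against 487 and 542 CPM in sgGal4, a log2 fold change of -0.80 ± 0.16 (adjusted p = 0.0134). The call was lost when any of the 4 libraries was left out, with log2 fold changes between -0.91 and -0.74. The other 8 members had values of -0.79 to -0.24, none of which passed. For all 9 members both sgDDX3 libraries lay below both sgGal4 libraries, but how many of all genes were separated in this way was not counted. The median of the 9 log2 fold changes was -0.62, against 0.01 over all genes. The count of calls depended on the processing. With no filter on low counts 5 members were called, in 1 fit of both fractions 5, and with the replicate number as a block 3. GOT1 and ALDH18A1 were called under each of these 3 alternatives.

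Most of the 9 genes were lower in sgNUP160 cells. In cytoplasmic-labelled RNA 7 members were lower in sgNUP160 than in sgGal4, against 8.13% of all genes. PCK2 had 201 and 171 CPM in sgNUP160, against 487 and 542 CPM in sgGal4, a log2 fold change of -1.46 ± 0.16 (adjusted p = 0.000124). CTH, GOT1 and ALDH18A1 were lower, at -1.51 ± 0.23, -1.34 ± 0.22 and -1.19 ± 0.22. ASNS was called at -0.97 ± 0.27 (adjusted p = 0.0246), which was lost when any of the 4 libraries was left out. Without the second sgNUP160 library, 3 members were called. In nuclear-labelled RNA 6 members were lower, against 8.54% of all genes, among them ASS1, whose call was lost without the first sgGal4 library, GPT2 at -1.12 ± 0.11 (adjusted p = 9.98e-09) and PCK2 at -1.04 ± 0.08 (adjusted p = 6.8e-11). GPT2 had 62.5 and 66.0 CPM there in sgNUP160, against 140 and 138 CPM in sgGal4.

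In nuclear-labelled sgCNOT1 cells 3 of 9 members were higher and 4 lower than in sgGal4, where 26.5% and 23.1% of all genes were called higher and lower. The count of higher members is near the share of all genes. ALDH18A1 had 39.7 and 41.1 CPM in sgCNOT1, against 17.1 and 24.6 CPM in sgGal4, a log2 fold change of 1.03 ± 0.16 (adjusted p = 3.87e-06). CTH had 150 and 161 CPM in sgCNOT1, against 112 and 117 CPM, a log2 fold change of 0.44 ± 0.10 (adjusted p = 0.00033), and PCK2 was higher by 0.45 ± 0.08. GPT2 and PYCR1 were lower, at -0.63 ± 0.11 and -0.47 ± 0.08. The ASS1 call, at -0.39 ± 0.10, was lost without the first sgGal4 library, and the CBS call, at -0.34 ± 0.14, under most alternatives. In cytoplasmic-labelled RNA GOT1 and GPT2 were lower, at -0.65 ± 0.20 and -0.51 ± 0.16, against 9.01% of all genes, and both calls were lost without either sgGal4 library. No member was called higher in that fraction. For 8 of the 9 both sgCNOT1 libraries lay below both sgGal4 libraries, a separation that was not counted over all genes.

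The guides were also set against each other. In nuclear-labelled RNA sgCNOT1 cells had 4 members higher and 2 lower than sgDDX3 cells, against 28.7% and 26.4% of all genes. CTH was higher by 1.28 ± 0.10 (adjusted p = 4.3e-12), PCK2 by 1.01 ± 0.08 and GOT1 by 0.76 ± 0.11. In cytoplasmic-labelled RNA PCK2 was higher by 0.50 ± 0.15 (adjusted p = 0.0417), where 10.4% of all genes were called higher, and lost the call without either sgDDX3 library. In sgNUP160 cells 3 members were lower than in sgDDX3 cells in the nuclear-labelled fraction, against 18.6% of all genes, with GPT2 at -1.02 ± 0.11 and ASS1 at -0.73 ± 0.10. In cytoplasmic-labelled RNA CTH and PCK2 were lower, against 2.29% of all genes, and both calls were lost when any of the 4 libraries was left out.

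The fall in the transgene set was larger than in the guide set, although DDX3X RNA was less depleted there. The difference between the no-transgene change against uninfected cells and the sgDDX3 change against sgGal4 was tested in a fit of both sets, added after seeing the data. In nuclear-labelled RNA 6 members had the more negative change in the transgene set, against 11.1% of all 15520 genes. ASS1 differed most, by -4.53 ± 0.22 on the log2 scale (adjusted p = 6.45e-19), followed by GPT2 at -2.08 ± 0.15, CTH at -1.94 ± 0.15 and PCK2 at -1.79 ± 0.11. In cytoplasmic-labelled RNA 5 members had the more negative change and ALDH18A1 the more positive one, against 3.5% and 5.9% of all genes. There ASS1 differed by -3.70 ± 0.30 (adjusted p = 1.41e-09) and ALDH18A1 by 0.78 ± 0.22 (adjusted p = 0.0194), and the ALDH18A1 call was lost with total counts as the scale and without any of 4 single libraries. GOT1 did not pass, with differences of 0.23 ± 0.15 nuclear-labelled and 0.04 ± 0.26 cytoplasmic-labelled. The sets differ in their control cells as well as in the vectors, and these cannot be told apart.

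**Figure D4:**
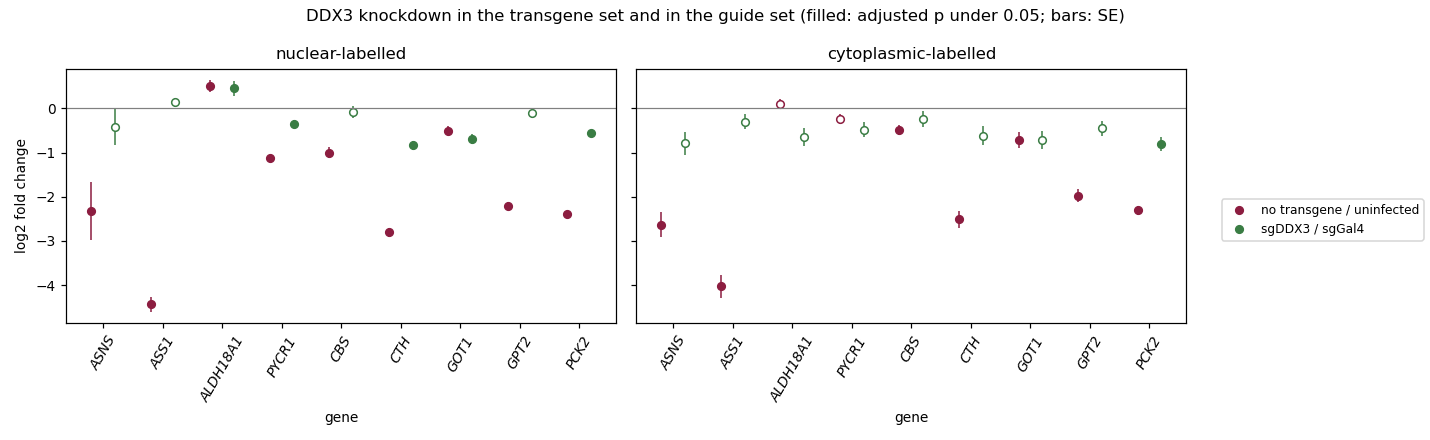
Log2 fold change of each gene (x axis) after loss of DDX3, with no transgene over uninfected cells and in sgDDX3 over sgGal4 cells, with SE bars, by labelled fraction. Filled points passed an adjusted p under 0.05. ASS1 was at -4.44 and -4.03 in the transgene set, against 0.14 and -0.29 in the guide set.

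Most genes differed between the labelled fractions in control cells, and so did most of the 9. On the scale of a fit of both fractions, ALDH18A1 had 20.7 and 27.1 CPM in nuclear-labelled sgGal4 libraries, against 125 and 120 CPM in cytoplasmic-labelled ones, a log2 fold change of -2.39 ± 0.20 (adjusted p = 4.85e-13). PYCR1 had 453 and 430 CPM nuclear-labelled, against 142 and 135 CPM cytoplasmic-labelled, a log2 fold change of 1.68 ± 0.15. ASS1 had 198 and 148 CPM, against 50.5 and 52.2 CPM, a log2 fold change of 1.76 ± 0.16. The proline enzymes thus lay on opposite sides. In sgGal4 cells 5 members were higher and 2 lower in the nuclear-labelled fraction, against 29.7% and 35.4% of all genes, and CBS and PCK2 did not pass. In uninfected cells 6 were higher and 3 lower, against 31.8% and 40.7%. ASNS was lower in both, at -2.91 ± 0.32 and -2.74 ± 0.33. The sgGal4 call of CTH, at 0.53 ± 0.17, was lost without the first nuclear-labelled library. With total counts as the scale, the median of all genes shifted to -0.62 in sgGal4 and -0.92 in uninfected cells, and PCK2 in uninfected cells, at 0.50 on the TMM scale, was then at -0.11, of opposite sign.

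**Figure D5:**
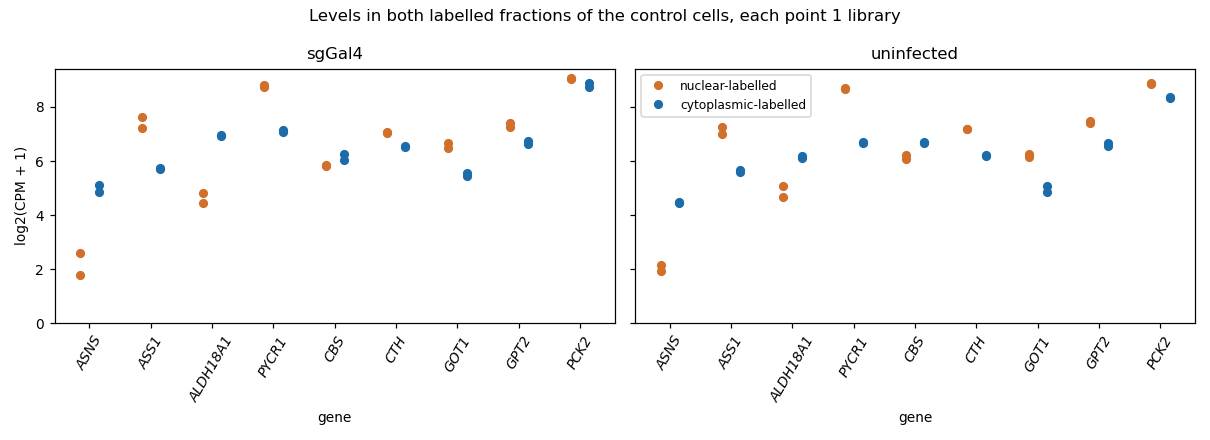
Levels of the 9 genes (x axis) as log2(CPM + 1) in both labelled fractions of sgGal4 and uninfected cells, each point 1 library. ASNS, ALDH18A1 and CBS were lower in the nuclear-labelled libraries and the other 6 genes higher.

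The ratio between fractions changed mainly for ALDH18A1. Relative to sgGal4, its ratio of nuclear-labelled over cytoplasmic-labelled RNA was higher by 1.14 ± 0.27 in sgDDX3 (adjusted p = 0.0134), by 1.48 ± 0.27 in sgCNOT1 (adjusted p = 0.000935) and by 1.39 ± 0.28 in sgNUP160 (adjusted p = 0.00423), all on the log2 scale. It was the only member called in sgDDX3 and sgNUP160, against 2.28% and 3.25% of all genes called higher. In sgCNOT1 3 members were called, against 2.59%, with CTH at 0.90 ± 0.24 and PCK2 at 0.75 ± 0.20. These 3 contrasts share the sgGal4 libraries. Without the first sgGal4 nuclear-labelled library, the sgDDX3 call and 2 of the 3 sgCNOT1 calls were lost. The sgDDX3 call was also lost without the second sgDDX3 nuclear-labelled library, the CTH and PCK2 calls in sgCNOT1 without several other single libraries, and the sgNUP160 call was lost without the second cytoplasmic-labelled or the first nuclear-labelled sgNUP160 library. With no transgene against uninfected cells, ALDH18A1 was at 0.46 ± 0.18 and did not pass. PYCR1 was the member called there, at -0.84 ± 0.12 (adjusted p = 6.52e-07), against 5.22% of all genes called lower.

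Other genes of the same pathways were compared between the 5 mutants and WT in the nuclear-labelled fraction, where 7.52% to 17.7% of all genes were called lower and 7.51% to 17.5% higher. Of 8 other genes of asparagine, aspartate and alanine metabolism, 6 were tested, of which 4 were lower in T532M, 2 in each of G325E, R326H and R534S and 1 in R351W, and 1 was higher in R326H. Of 8 other arginine and urea cycle genes 4 were tested, and 1 was lower in T532M and none in the other 4 mutants. Of 6 other proline genes 5 were tested, with none lower in any of the 5 mutants and 1 higher in each of R326H, R534S and T532M. The median log2 fold changes of these 3 lists stayed between -0.35 and 0.05. Of 10 other methionine, cysteine and glutathione genes 9 were tested, and 1 to 3 were lower and 0 or 1 higher, with medians of -0.14 to -0.05. Of 6 other phosphoenolpyruvate and anaplerosis genes 5 were tested, and 0 or 1 were lower and 0 or 1 higher. In nuclear-labelled sgDDX3 against sgGal4, 2 of the 6 asparagine list genes were higher and 3 lower, against 16.4% and 14.9% of all genes. In sgCNOT1 against sgDDX3, 3 of the 9 methionine list genes were higher and 5 lower, against 28.7% and 26.4%.

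Genes of serine synthesis and folate metabolism, and the ATF4 and stress regulators, moved with the members. Of 10 serine and folate genes, 8 to 10 were lower in the 5 mutants against WT in the nuclear-labelled fraction, against 7.52% to 17.7% of all genes, with medians of -1.28 to -1.07. Of 12 ATF4 and stress regulators, 9 or 10 were lower and 0 or 1 higher, against the same shares of all genes, with medians of -1.22 to -0.94. PHGDH, the first enzyme of serine synthesis, had 26.4 to 44.2 CPM in the 12 nuclear-labelled libraries of the 5 mutants and cells with no transgene, against 193 to 386 CPM in WT and uninfected cells. Its log2 fold change with no transgene against uninfected cells was -3.16 ± 0.08 (adjusted p = 2.26e-48). TRIB3, a pseudokinase induced by ATF4, had 53.9 to 80.3 CPM in those 12 libraries, against 205 to 465 CPM. ATF4 itself had 260.1 to 325.96 CPM, against 621 to 877 CPM, in the nuclear-labelled fraction, and overlapped in the cytoplasmic-labelled fraction, at 161 to 217 CPM, against 205 to 224 CPM. In sgNUP160 cells, 10 of 10 serine and folate genes and 9 of 12 regulators were lower than in sgGal4 in the nuclear-labelled fraction, against 8.54% of all genes. In sgCNOT1 cells 5 of the 12 regulators were higher and 2 lower there, and 1 of 10 serine and folate genes was higher and 8 lower, against 26.5% and 23.1% of all genes.

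Patterns across the 13 genotypes were closest among ASNS, ASS1, CTH, GPT2 and PCK2 in the cytoplasmic-labelled fraction, which was not so in the nuclear-labelled one. The pattern is the mean log2(CPM + 1) of a genotype minus the mean over its set, within 1 fraction, and the genotypes share controls, depth and library preparation. Among ASNS, ASS1, CTH, GPT2 and PCK2, Pearson's r over the 10 pairs ran from 0.94 to 0.99 in the cytoplasmic-labelled fraction and from 0.87 to 0.98 in the nuclear-labelled fraction. The highest nuclear-labelled r of all 36 pairs was that of PYCR1 with CBS (0.98), and both reached 0.92 to 0.95 with ASS1 and GPT2. Over the 28 pairs without ALDH18A1, r was at least 0.64 and 0.51 in those fractions. ALDH18A1 had r between -0.74 and -0.12 with the other 8 members in the nuclear-labelled fraction, and between -0.07 and 0.59 in the cytoplasmic-labelled fraction. Among 9294 protein-coding genes with at least 10 CPM in the cytoplasmic-labelled fraction, GARS1, a glycyl-tRNA synthetase, was the most like GPT2 (r = 0.99) and ASNS (r = 0.98). PHGDH was the most like ASS1 (r = 0.98), ADM2 the most like CTH (r = 0.98) and DMTF1 the most like PCK2 (r = 0.99). In nuclear-labelled RNA WARS1, a tryptophanyl-tRNA synthetase, was the most like PCK2 (r = 0.98), MTHFD1L the most like CBS (r = 0.97) and MMS19 the most like GOT1 (r = 0.97). The genes most like ALDH18A1 were TM9SF2 (r = 0.96) in the cytoplasmic-labelled fraction and SLC52A2 (r = 0.95) in the nuclear-labelled fraction, and all these r values describe the 13 genotypes only.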

How the data were processed

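RNA of both labelled fractions was sequenced from rRNA-depleted, strand-specific libraries, per the labels' protocols. The authors deposited raw read counts per gene. STAR 2.7.5a and GRCh38 are named in the submitters' processing notes, while no source used here names the annotation. Column 4 of the deposited count files was used, which holds the strand with the larger total. Reads in rows that name no gene stayed out of library sizes and tests. Such rows held 25.1% to 73.2% of reads in nuclear-labelled and 58.4% to 74.0% in cytoplasmic-labelled libraries. The nuclear-labelled share was 25.1% to 34.1% in the guide set and 41.4% to 73.2% in the transgene set. Of reads counted to a gene, to no feature or as ambiguous, those without a feature made up 5.14% to 10.5% nuclear-labelled and 50.4% to 69.2% cytoplasmic-labelled. Of the 51 libraries 50 were used, 25 per fraction, and the second R376C nuclear-labelled library was left out.

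Genotypes were compared with edgeR 4.0.16 in R 4.3.3, using TMM scaling, filterByExpr and the robust quasi-likelihood test with Benjamini-Hochberg adjustment over all genes tested, in 1 fit per set and labelled fraction. Standard errors are the log2 fold change divided by the square root of F. Differences between fractions and their ratios came from fits of both fractions. The lone R376C library was assumed to vary like the other groups. The test was run on simulated counts for sgDDX3 against sgGal4 only, with the same set spread for all genes. That run did not cover the transgene set or a group with a lone library, so it does not vouch for those tests. Alternatives were median-ratio size factors, total gene counts, no filter, unstranded counts, a replicate block, DESeq2 1.42.0, 1 fit of both fractions, inclusion of the left-out library, and leaving out each library in turn. All 9 members are named, with at most 4 other pathway genes a comparison, those with the smallest adjusted p, plus ATF4 as their regulator, named after its values were seen. The genes of most similar pattern were the first by Pearson's r. The members and lists were chosen with earlier results of these data known.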

Additional observations from a re-analysis of the deposited data

Results flagged for a closer look

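The change after loss of DDX3 differed between the transgene set (no transgene against uninfected) and the guide set (sgDDX3 against sgGal4) for several genes, by a test of the difference itself that was added after seeing the data. On the log2 scale, the difference in the nuclear-labelled fraction was -4.53 for ASS1, -2.08 for GPT2, -1.94 for CTH, -1.79 for PCK2, -0.88 for CBS and -0.75 for PYCR1. In the cytoplasmic-labelled fraction it was -3.70 for ASS1, -1.86 for CTH, -1.81 for ASNS, -1.49 for GPT2, -1.47 for PCK2 and 0.78 for ALDH18A1.

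The balance between the labelled fractions also differed between genotypes by an interaction test. Against sgGal4, the log2 difference of the nuclear-labelled over cytoplasmic-labelled ratio of ALDH18A1 was 1.14 in sgDDX3, 1.48 in sgCNOT1 and 1.39 in sgNUP160. In sgCNOT1 it was 0.90 for CTH and 0.75 for PCK2. With no transgene against uninfected cells it was -0.84 for PYCR1.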

How the results depend on the processing

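Of 214 member calls in 360 tests, 170 were kept under every alternative other than inclusion of the left-out library and in every refit without 1 library. In the 90 such refits 37 calls were lost at least once, and no called value changed sign. Replicate numbers were not taken as pairing the samples, since in no fit did every pair of same-numbered libraries correlate above 0.1. In the cytoplasmic-labelled guide set 3 of 6 pairs did (median 0.11, highest 0.44), and there the block moved calls over all genes to 998 against 445 for sgDDX3 and to 3459 against 2442 for sgNUP160. With a replicate block, 352 of 360 values stayed on their side of the threshold, 2 calls were lost and 6 gained.

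In the cytoplasmic-labelled fraction, the calls for sgDDX3 against sgGal4 numbered 1, but 5 with no filter, 3 with the replicate block and 5 in 1 fit of both fractions. For sgCNOT1 against sgGal4 they numbered 2, but 1 with no filter, 4 with the block, 1 with DESeq2 and 4 in 1 fit. For sgCNOT1 against sgDDX3 they numbered 1, but 0 with total counts or unstranded counts, and for sgNUP160 against sgDDX3 2, but 1 with total counts. WT against uninfected cells gave 1, but 2 in 1 fit. R376C against the other 5 mutants gave 1, but 2 with no filter or DESeq2 and 3 in 1 fit, and the test of any difference among the 6 genotypes gave 0, but 1 in 1 fit. In the nuclear-labelled fraction, sgDDX3 against sgGal4 gave 5 calls, but 3 in 1 fit.

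With the second R376C nuclear-labelled library included, nuclear-labelled calls numbered 5 for no transgene against uninfected cells, 3 against WT and 0 for WT against uninfected cells. In the same order, calls over all genes fell to 1015, 60 and 14 of 14222 tested, from 5699, 2623 and 3088 of 14598. Against WT, member calls numbered 3 in each of G325E, R326H, R351W and R534S, 5 in T532M and 0 in R376C. Calls over all genes there numbered 55, 59, 45, 68, 817 and 8. The test of any difference gave 0 member calls, against 93 over all genes. The PYCR1 ratio call with no transgene was lost, leaving 0, while total or unstranded counts gave 2. Included, that library turned R376C against the other 5 mutants to 0.61 for ALDH18A1 and -0.15 for PYCR1. With total counts, PCK2 in nuclear-labelled over cytoplasmic-labelled uninfected libraries turned to -0.11. The cause was not tested.

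Without 1 library in turn, cytoplasmic-labelled calls ran from 0 to 0 for sgDDX3 against sgGal4, 0 to 5 for sgCNOT1, 3 to 6 for sgNUP160, 0 to 3 for sgCNOT1 against sgDDX3 and 0 to 0 for sgNUP160 against sgDDX3. Ratio calls ran from 0 to 1 in sgDDX3, 1 to 4 in sgCNOT1, 0 to 1 in sgNUP160 and 1 to 2 with no transgene. The test of any difference ran from 0 to 3 cytoplasmic-labelled and 2 to 4 nuclear-labelled. Depth limited ASNS most, with 0 to 258 counts per library.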

Other observations

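The second R376C nuclear-labelled library, left out of the comparisons, had values near those of the R376C cytoplasmic-labelled library. In CPM without TMM scaling, ALDH18A1 was at 103.3 in the left-out library, 25.5 in the first nuclear-labelled library and 95.5 in the cytoplasmic-labelled library. CTH was at 26.5, 57.0 and 26.0 CPM in the same order of libraries, and ASS1 at 9.26, 29.003 and 11.3 CPM. MALAT1 was at 19578 CPM in the left-out library, 2864 CPM in the first nuclear-labelled library and 22506 CPM in the cytoplasmic-labelled library.

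CHAC1, a glutathione-degrading enzyme induced by ATF4 and named after its values were seen, had 0.648 to 4.88 CPM in the 12 nuclear-labelled libraries of the 5 mutants and cells with no transgene, against 24.8 to 25.9 CPM in the 4 WT and uninfected libraries. DDIT3, a stress transcription factor named likewise, had 12.95 to 19.89 CPM in those 12 libraries, against 29.6 to 47.9 CPM. The cytoplasmic-labelled levels of DDIT3 overlapped, at 14.9 to 27.7 CPM in the 12 libraries, against 21.9 to 27.9 CPM.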
